A study of Mus musculus with 18 samples.

Results

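The regions described here were the H3K27me3 peaks of wild-type (WT) mouse hippocampus that were still marked when Arid1a was lost. A peak was taken as kept when it shared at least 1 bp with an H3K27me3 peak of the Arid1a conditional knockout (cKO). Of 4124 WT peaks, 4037 met this rule, or 97.9% (Wilson 95% interval 97.4 to 98.3), and they lay in 2094 of the 15659 cKO peaks. The members were thus chosen by H3K27me3 peak calls of both genotypes, and their H3K27me3 length, pileup and enrichment are given as a description with no test.

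Trimethylation of lysine 27 of histone H3 is laid down by Polycomb repressive complex 2 and is read by Polycomb repressive complex 1, which together keep developmental regulators silent in cells that do not use them. In vertebrates the mark gathers at CpG-rich promoters and, at Hox genes and other homeobox loci, spreads over whole clusters. BAF (SWI/SNF) complexes, of which Arid1a encodes a DNA-binding subunit, remodel nucleosomes and are known as antagonists of Polycomb repression.

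All mice were C57BL/6, either cKO for Arid1a or WT, and no label names the Cre driver or the cells it acts in. ChIP-seq at an age of 3 weeks had 1 cKO and 1 WT library for each of H3K27me3, H3K4me3, H3K27ac and input. RNA-seq had 2 cKO and 2 WT libraries at postnatal day 21 (P21) and 3 cKO and 3 WT libraries at embryonic day 16.5 (E16.5), biological replicates per the series design. The cKO H3K27me3 library held 17399169 tags and the WT library 18009991, and the totals of estimated RNA counts were 20089631 to 20332148 per P21 library and 17662335 to 19760764 per E16.5 library. Arid1a itself had 2281 and 1778 counts in cKO against 4291 and 4089 in WT at P21 (log2 change -1.08 with SE 0.13, adjusted p of edgeR 0.00507), and its log2 change at E16.5 was -0.64 with SE 0.06 (adjusted p of edgeR 0.032). Markers of hippocampal neurons summed to 7920 to 8890 CPM (counts scaled to library size) in cKO and 8230 to 8820 CPM in WT at P21, with 1 of 8 called higher and 3 lower, and 0 of 8 stayed below 1 CPM in all 4 libraries. With 1 ChIP library per genotype, a difference of genotype and a difference between libraries cannot be told apart.

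The sequences below come from gene starts that a kept peak overlaps. They are promoter windows from RefSeq (build GRCm38.p6), 250 bases before to 50 bases after the start, of 4 of the genes with most kept bases, and each is covered in part or whole by a kept peak. The kept peak at the Hoxa3 start runs from -0.014 to 1.211 kb in the direction of transcription. The next one upstream ends at -0.498 kb, so most of the printed Hoxa3 window lies outside kept peaks. Hoxa3 and Hoxd3 encode homeodomain factors of axial patterning, Ebf3 a helix-loop-helix factor of neuronal differentiation, and Pax2 a paired-box factor of midbrain-hindbrain and kidney development. The Hoxa3 window is chr6:52213018-52213317 on the minus strand, that of Ebf3 chr7:137314396-137314695 on the minus strand, that of Hoxd3 chr2:74711743-74712042 on the plus strand and that of Pax2 chr19:44756656-44756955 on the plus strand. The Ebf3 window and the Pax2 window, 1 of 3 of that gene, lie at starts inside the RefSeq span of the gene. Capitals mark each CG dinucleotide, which reads the same on both strands.
Hoxa3: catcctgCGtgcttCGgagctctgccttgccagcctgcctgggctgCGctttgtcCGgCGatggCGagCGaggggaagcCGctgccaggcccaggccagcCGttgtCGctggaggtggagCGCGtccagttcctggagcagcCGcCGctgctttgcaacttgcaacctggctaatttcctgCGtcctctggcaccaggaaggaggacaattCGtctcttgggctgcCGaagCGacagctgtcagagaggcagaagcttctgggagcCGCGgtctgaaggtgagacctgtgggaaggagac
Ebf3: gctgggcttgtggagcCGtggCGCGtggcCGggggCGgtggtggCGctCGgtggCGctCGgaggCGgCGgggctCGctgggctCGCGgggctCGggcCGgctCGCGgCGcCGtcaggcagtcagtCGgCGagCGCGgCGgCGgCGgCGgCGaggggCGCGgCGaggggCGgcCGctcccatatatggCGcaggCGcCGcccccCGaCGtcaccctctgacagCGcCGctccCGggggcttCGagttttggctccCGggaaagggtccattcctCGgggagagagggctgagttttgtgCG
Hoxd3: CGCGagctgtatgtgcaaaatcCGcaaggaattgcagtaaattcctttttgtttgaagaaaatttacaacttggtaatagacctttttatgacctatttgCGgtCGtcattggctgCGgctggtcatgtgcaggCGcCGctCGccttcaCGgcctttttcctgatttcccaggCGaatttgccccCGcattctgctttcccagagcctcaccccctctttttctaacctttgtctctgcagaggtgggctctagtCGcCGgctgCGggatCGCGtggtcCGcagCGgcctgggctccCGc
Pax2: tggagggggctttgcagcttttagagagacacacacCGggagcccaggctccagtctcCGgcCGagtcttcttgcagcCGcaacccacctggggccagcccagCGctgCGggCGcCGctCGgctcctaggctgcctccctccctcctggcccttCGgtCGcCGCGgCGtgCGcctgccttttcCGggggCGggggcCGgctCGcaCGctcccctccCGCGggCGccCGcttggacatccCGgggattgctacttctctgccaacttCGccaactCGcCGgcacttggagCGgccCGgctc
The Hoxa3 and Hoxd3 windows each hold 20 CG, the Pax2 window 30 and the Ebf3 window 46. Over all 656 promoter windows that share a base with a kept peak, the median was 18 CG and 84.0% held 10 or more, against a median of 7 and 43.5% among all 32851 windows. Protein-coding windows with a kept peak had a median of 20 CG and 88.1% at 10 or more, against 22 CG and 90.9% in protein-coding windows with a WT H3K4me3 peak and no kept peak. A high CG content was shared with promoters outside the kept regions.

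The kept regions were wider and more enriched in cKO. The cKO peaks that held them had a median length of 1936 bp (quartiles 1095 and 3384), and the kept WT peaks 504 bp (quartiles 349 and 832). Fold enrichment over local input, the authors' value for each peak, had a median of 9.37 (highest 22.2) in these cKO peaks and 4.99 (highest 11.4) in the kept WT peaks. The pileup, the number of overlapping fragments at the summit after scaling to input, had a median of 35 in cKO and 25.8 in WT. In bases, the cKO peaks covered 5771450 and the kept WT peaks 2831674, a ratio of 2.04, and 98.4% of the kept WT bases lay inside cKO peaks.

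Most WT peaks lay inside cKO peaks with no base outside. Of the 4037 kept peaks, 3598 were of this kind (89.1%, Wilson interval 88.1 to 90.0), and 3971 had their summit inside one. Several WT peaks often fell in 1 cKO peak: 860 cKO peaks held 2 or more WT peaks, 162 held 5 or more, and the most was 13. These 860 peaks took up 2875 of the kept WT peaks. Narrow peak calling can split a broad domain, and part of the gain in length per peak is the joining of such pieces.

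The 1132 pairs in which 1 cKO peak met exactly 1 WT peak are free of this joining. Their median length was 1378 bp in cKO and 426.5 bp in WT, their median fold enrichment 8.12 in cKO and 4.96 in WT, and their median pileup 30 in cKO and 23.8 in WT. The cKO peak was the longer in 95.5% of pairs and the more enriched in 87.6%. Per pair the median cKO/WT ratio was 2.67 for length, 1.259 for pileup and 1.626 for fold enrichment. Over all kept peaks, with every overlapping cKO peak counted, these ratios were 5.72, 1.54 and 2.21. Across pairs, cKO and WT length had a Spearman coefficient of 0.469, while cKO and WT fold enrichment had one of 0.0926, described over regions of the same 2 libraries. The libraries of the other marks, treated the same way, gave a median fold enrichment ratio of 0.972 over 15058 H3K4me3 pairs and of 1.36 over 8192 H3K27ac pairs.

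**Figure D1:**
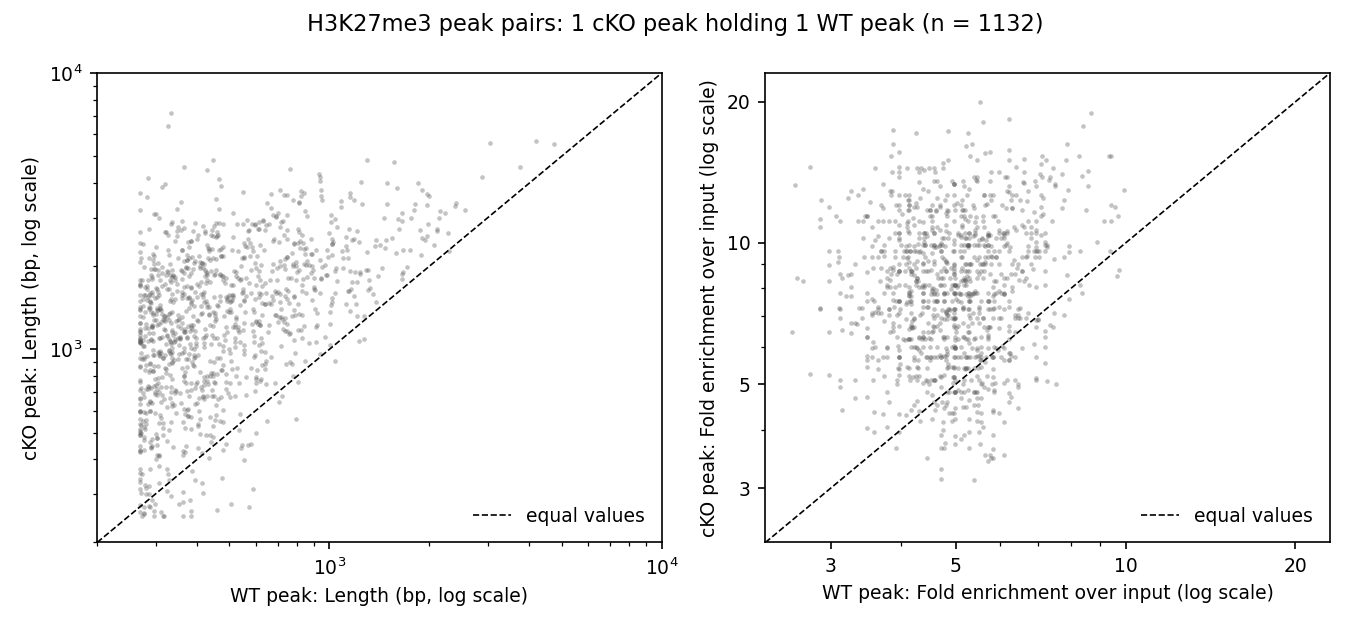
Length in bp (left) and fold enrichment over input (right) of the cKO peak (vertical axis) against the WT peak (horizontal axis) for the 1132 pairs of 1 cKO and 1 WT H3K27me3 peak, on log axes, with a dashed line at equal values. Most points lie above the line, 95.5% for length and 87.6% for enrichment, and the WT enrichments fill a narrower range than those of cKO.

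At the edge of the rule, the kept peak with the fewest shared bases shared 6 bp with a cKO peak of fold enrichment 4.81, against 5.42 in WT, and the closest peak not kept lay 1 bp from a cKO peak of 4.81, against its own 4.99. The 87 WT peaks not kept were short, with a median length of 313 bp and a median fold enrichment of 4.92, and 56 of them lay within 1 kb of a cKO peak. The 13565 cKO peaks with no WT peak had a median length of 385 bp and a fold enrichment of 4.81. The cKO peaks over kept regions, with medians of 1936 bp and 9.37, lay above these. The cKO list was split by overlap with WT peaks, which longer peaks meet more readily. Part of this difference can thus follow from the rule.

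Hox loci were among the genes with most kept bases. Within 1 kb of the RefSeq span of Hoxa3 (chromosome 6, 52169059 to 52213067), which also takes in neighbouring Hoxa genes, cKO had 11 peaks over 44754 bp with a highest fold enrichment of 21.3, and WT had 31 kept peaks over 23398 bp with a highest of 9.83. At Hoxb3, cKO had 7 peaks over 41918 bp and WT 29 kept peaks over 20310 bp, and at Hoxd3 cKO had 8 over 35687 bp and WT 25 over 16576 bp. Fewer and longer peaks in cKO were thus found at all 3 of these clusters.

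Ebf3 showed another form. It had 64 cKO peaks over 64260 bp and 22 kept WT peaks over 18739 bp. T-box factor Tbx5, which patterns heart and forelimb, had 26 cKO peaks over 38264 bp and 21 kept WT peaks over 15226 bp. Gata4, a factor of heart and endoderm, had 16 over 35351 bp in cKO and 21 over 14348 bp in WT. Pax2 had 14 over 25917 bp in cKO and 12 over 14115 bp in WT, and Tbx15 14 over 24939 bp in cKO and 21 over 12836 bp in WT. With model genes left out, the 10 genes with most kept bases all had more bases covered in cKO. So did 1352 of the 1357 genes within 1 kb of a kept peak. These counts take all cKO peaks but only kept WT peaks. Since kept peaks were chosen for overlap with cKO peaks, this direction was largely set by the rule.

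**Figure D2:**
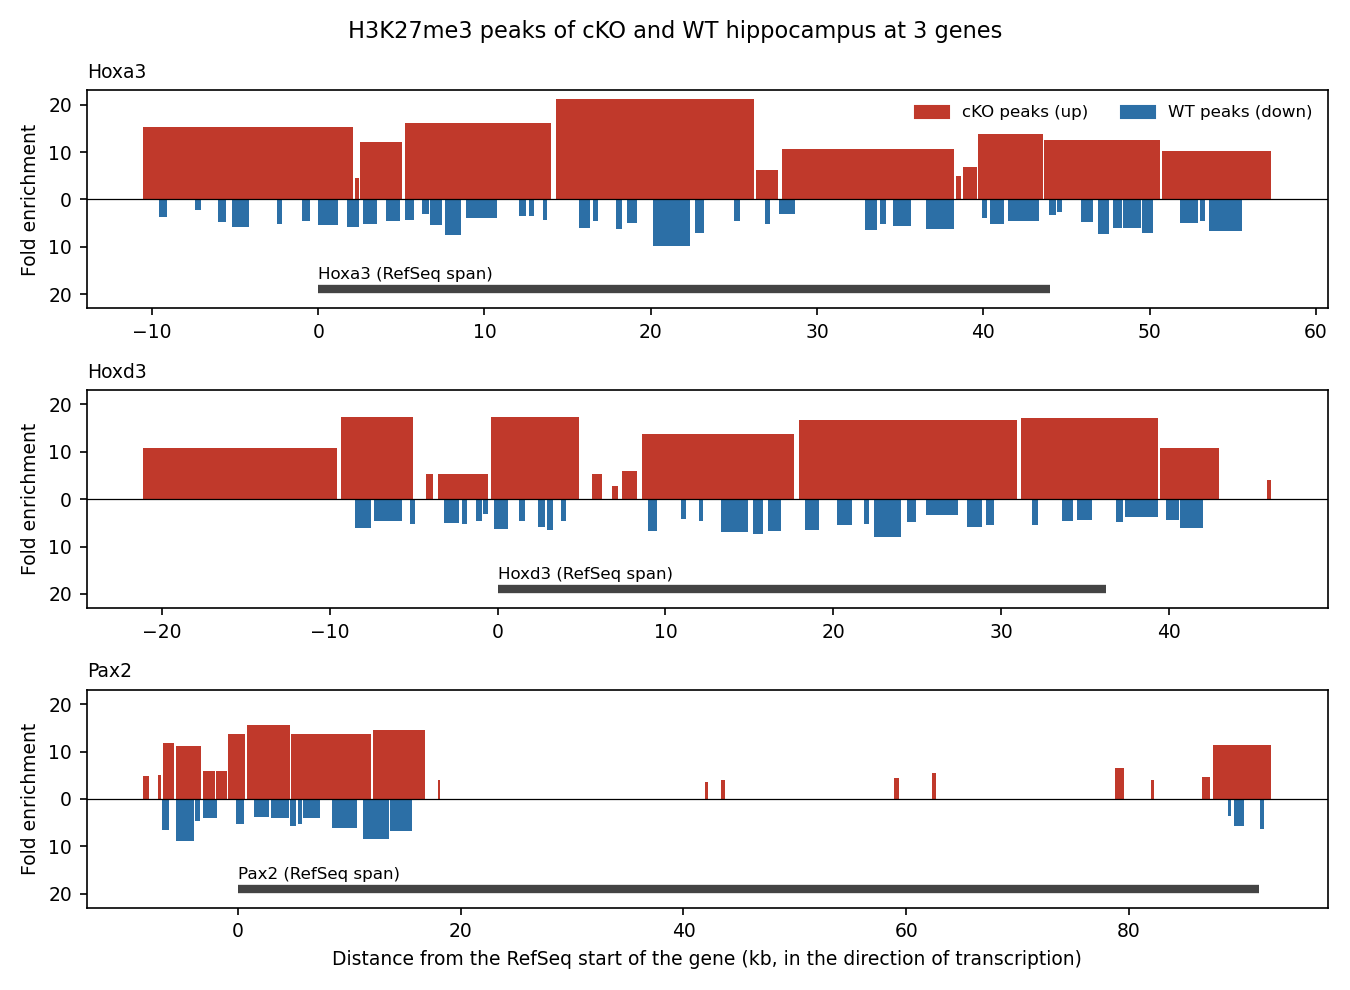
H3K27me3 peaks around Hoxa3, Hoxd3 and Pax2 by distance in kb from the start of the RefSeq span, in the direction of transcription. The cKO peaks are drawn upward (red) and kept WT peaks downward (blue). Bar height is the fold enrichment and the grey line the RefSeq span. Series of short WT peaks face single long cKO peaks, and the cKO bars reach 21.3 at Hoxa3 against 9.83 in WT.

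The longest cKO peak over kept regions, 22708 bp at Lmx1b, a LIM homeobox factor of dopaminergic and serotonergic neurons, held 11 WT peaks of 12338 bp together. The next, 20082 bp at Hoxb3, held 13 WT peaks of 10005 bp. Peaks of 17662 bp at Hmx3 and Hmx2, 17111 bp at Gbx2 and 17021 bp at Skor1 held 11, 11 and 10 WT peaks.

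The most enriched WT regions were not always the most enriched in cKO. The highest WT peak, near the model gene Gm33167, had a fold enrichment of 9.99 in cKO and 11.4 in WT. Foxe3, a lens forkhead factor, had 18.6 in cKO and 11.0 in WT. A peak 6647 bp from Twist1, a mesodermal helix-loop-helix factor, had 11.2 in cKO and 10.6 in WT. Others of the 8 highest lay in Igf2bp2, an RNA-binding protein gene, with 18.2 in cKO and 10.4 in WT, 1599 bp from Otp, a hypothalamic homeobox factor, with 18.6 in cKO and 10.4 in WT, and 14402 bp from a model gene, with 11.1 in cKO and 10.3 in WT.

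The largest gains in enrichment were seen where a weak WT peak lay in a long cKO domain. A WT peak at Hmx2 had 19.2 in cKO and 2.78 in WT, one at Hoxd11 17.4 in cKO and 2.68 in WT, and one 1530 bp from Hoxa7 15.3 in cKO and 2.32 in WT. Here the cKO value is the summit of a domain many times the length of the WT peak. Stronger kept WT peaks lay within 1 kb of the same genes, with a highest of 9.35 at Hmx2, 6.35 at Hoxd11 and 5.79 at Hoxa7. These gains thus set a cKO maximum against a weak WT piece. At the other end, enrichment was lower in cKO at single peaks in Tcf7l2, a Wnt effector (3.13 in cKO, 5.39 in WT), Msrb3, a methionine sulfoxide reductase gene (3.48 in cKO, 5.82 in WT), Cdkn2a, the locus of the cell-cycle inhibitors p16 and p19 (3.43 in cKO, 5.71 in WT), the noncoding D130009I18Rik (3.54 in cKO, 6.10 in WT) and 1956 bp from Fezf1 (2.47 in cKO, 5.16 in WT). Other kept peaks at Tcf7l2 went the other way: 3 of them had 13.2 to 14.4 in cKO and 3.72 to 4.34 in WT.

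Kept regions lay in and near genes. By RefSeq gene spans, 3174 of 4037 kept peaks were within 1 kb of a gene (78.6%, Wilson interval 77.3 to 79.9), against 70.0% (69.3 to 70.8) of the cKO peaks with no WT peak. Distances to gene starts used the promoter table, which holds 79.9% of protein-coding genes and none on chromosome 18, so shares near a start are lower bounds. Of 3943 kept peaks off that chromosome, 27.9% (26.5 to 29.3) lay within 1 kb of a start, against 21.4% (20.7 to 22.1) of cKO peaks with no WT peak. The median distance of the summit from the nearest start was 4278 bp for kept peaks and 9710 bp for those other cKO peaks, and 59.3% of kept summits lay downstream of that start. The shares within 1 kb of a gene or a start were larger for kept peaks. The intervals cover counting error only and treat peaks as independent. Several kept peaks often lay in 1 cKO peak, so the intervals may be too narrow. Kept peaks were also longer, with a median of 504 bp against 385 bp, and longer peaks reach a gene more easily. No correction was made for length.

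The 1357 genes within 1 kb of a kept peak comprised 933 protein-coding genes and 370 lncRNA genes. The protein-coding ones were 4.26% of all protein-coding genes. All 39 Hox genes and all 49 midbrain, hindbrain and other patterning homeobox factors had a kept peak, as did 19 of 20 Nkx and Dlx factors, 10 of 12 LIM homeobox factors, 8 of 9 Pax factors and 44 of 49 mesoderm and endoderm factors. Ligands of signalling pathways had one in 28 of 42, and neurogenic bHLH and Sox factors in 14 of 25. Of 20 factors of hippocampal and pallial identity, 3 had a kept peak, among them Meis2, a homeobox cofactor, and the nuclear receptor Nr2f2. A further 12 pallial factors, among them Emx1, Emx2 and Prox1, had a cKO peak and no kept peak. Of 34 genes of Polycomb machinery 1 had a kept peak, the chromodomain gene Cbx8, and 0 of 26 BAF subunit genes did. The lists were assembled by hand with earlier results of these data known, so their shares are descriptive.

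**Figure D3:**
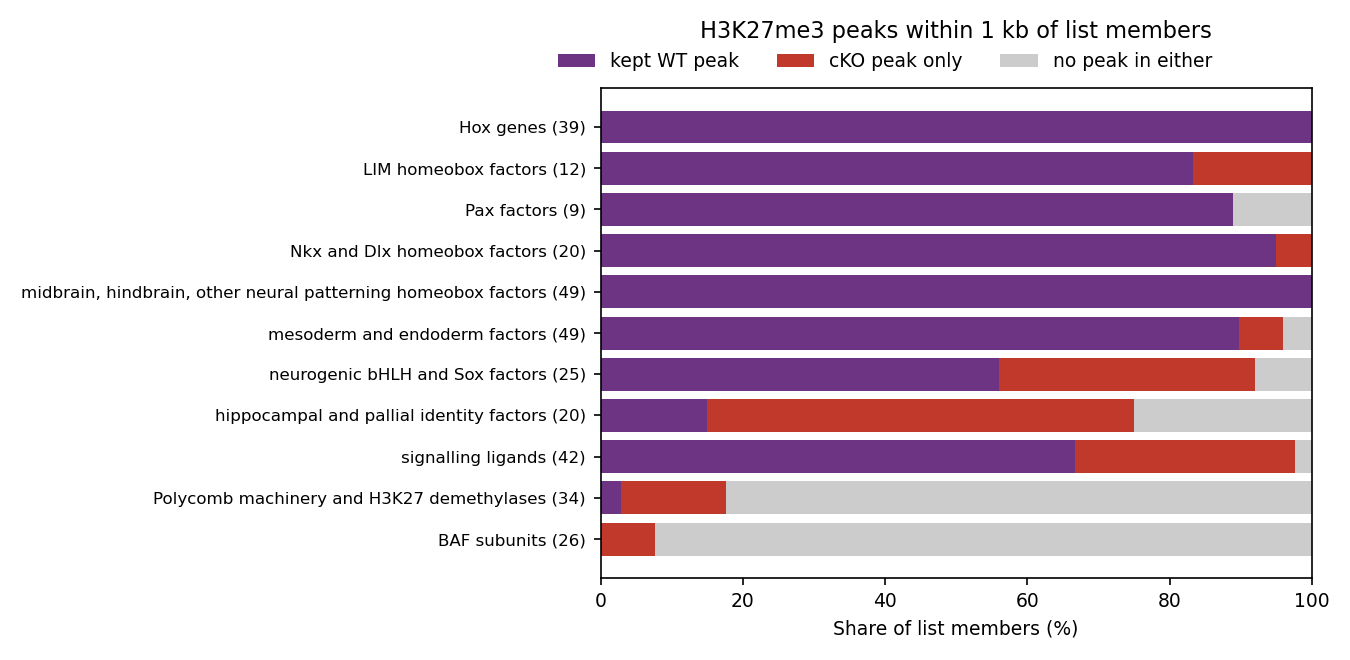
Share of the members of each gene list (number in brackets) with a kept WT H3K27me3 peak within 1 kb (purple), with a cKO peak and no kept peak (red) and with neither (grey). Lists of homeobox and germ layer factors are nearly all purple, pallial identity factors mostly red, and genes of Polycomb machinery and BAF subunits mostly grey.

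Coverage, counted over all cKO peaks and over kept WT peaks only, was larger in cKO in each list that had more than 1 member with a kept peak. Over all 1357 genes near a kept peak the median ratio of cKO to WT bases was 2.94. Several lists of homeobox and germ layer factors lay below that. The median ratio was 1.73 over Hox genes, 1.57 over patterning homeobox factors, 1.64 over Nkx and Dlx factors and 1.77 over mesoderm and endoderm factors. It was 3.24 at the 3 pallial factors and 3.45 at signalling ligands, where WT coverage was thinner. Gdf6, a ligand of the bone morphogenetic protein family, had 5 cKO peaks over 15254 bp and 7 kept WT peaks over 8276 bp. Nkx2-2, a ventral patterning and oligodendrocyte factor, had 7 cKO peaks over 15756 bp and 9 kept WT peaks over 5435 bp. Lhx6, an interneuron factor, had 6 over 16876 bp in cKO and 11 over 10958 bp in WT, and Nr2f2 had 11 over 6543 bp in cKO and 2 over 915 bp in WT. Neighbouring Hox genes share peaks, so list members are not independent.

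H3K4me3, the mark of active and poised promoters, overlapped more kept regions in cKO than in WT. A kept peak shared a base with a cKO H3K4me3 peak in 22.9% (Wilson interval 21.6 to 24.2) and with a WT H3K4me3 peak in 16.0% (14.9 to 17.1). The overlap was present in cKO only at 332 kept peaks, in WT only at 52, in both at 592 and in neither at 3061. Of the 935 cKO H3K4me3 peaks on kept regions 38.5% (35.4 to 41.7) had no WT H3K4me3 peak, against 23% (22.5 to 23.5) of all 28234 cKO H3K4me3 peaks. Those on kept regions were also weaker and shorter. Their median fold enrichment was 5.77 against 7.82 over all, and their median length 439 bp against 655 bp. The part of peak strength and length in the larger share was not tested. Conversely, 8.99% (7.02 to 11.4) of the WT H3K4me3 peaks on kept regions had no cKO counterpart, against 8.79% of all WT H3K4me3 peaks. Within 1 kb of a start the shares of kept peaks with H3K4me3 were 46.3% in cKO and 33% in WT. Among cKO peaks with no WT peak they were larger there, at 62.4% and 56.9%. At any distance from a start, 24.7% of those other peaks had a cKO and 21.3% a WT H3K4me3 peak.

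H3K27ac, the mark of active promoters and enhancers that cannot sit on the same histone tail position as H3K27me3, was rare on kept regions. Of the kept peaks, 110 shared a base with a cKO H3K27ac peak (2.72%, 2.27 to 3.27) and 4 with a WT one (0.0991%, 0.0385 to 0.255). Among cKO peaks with no WT peak these shares were 8.78% and 3.72%. The 4 with a WT H3K27ac peak lay at Nr2e1, a neural stem cell receptor, Nfe2l2, Zfhx3 and Trank1. Of the 117 cKO H3K27ac peaks on kept regions 95.7% had no WT H3K27ac peak, against 57.7% of all 24065 cKO H3K27ac peaks. Those 117 were also weaker and shorter, with a median fold enrichment of 5.29 against 5.95 and a median length of 304 bp against 364 bp. The part of this in the share was not tested. The gene with most kept peaks that share a base with H3K27ac was Sox2ot, the transcript that overlaps the stem cell factor Sox2, with 9 in cKO and 0 in WT, named after its values were seen. In bulk tissue, 2 marks on the same base may lie in different cells.

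**Figure D4:**
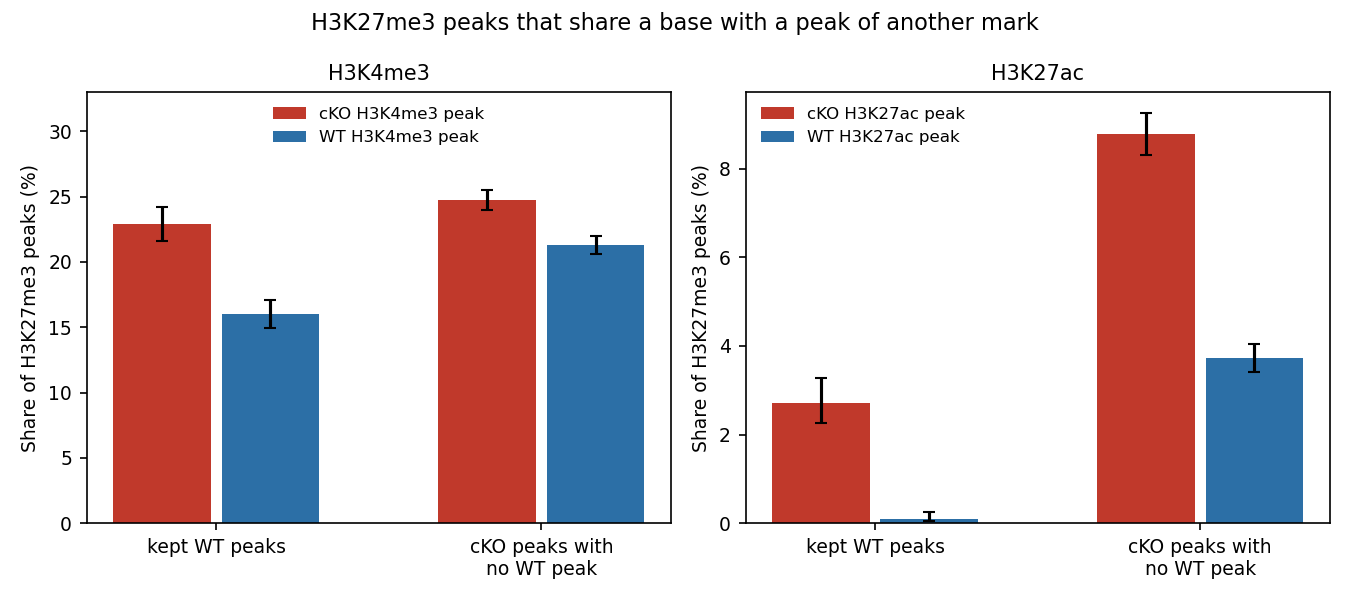
Share in percent of H3K27me3 peaks that share a base with an H3K4me3 peak (left) or an H3K27ac peak (right) of cKO (red) or WT (blue), for kept WT peaks and for cKO peaks with no WT peak; error bars are Wilson 95% intervals and cover counting error only. On kept peaks H3K4me3 stands at 22.9% in cKO and 16.0% in WT, and H3K27ac at 2.72% in cKO and 0.0991% in WT.

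RNA is a readout the choice of regions did not use. Of the 1357 genes at kept peaks, 1149 matched 1 row of the count table. They were weakly expressed, with a mean under 1 CPM in 59.1% at P21, and the 568 that passed the filter on low counts had a median of 4.4 CPM in cKO and 3.97 CPM in WT, against 14.7 CPM in cKO and 14.8 CPM in WT over all 17407 genes tested. At P21, 40 of these 568 genes were higher in cKO and 25 lower by the edgeR quasi-likelihood test at an adjusted p under 0.05. That is 7.04% higher and 4.4% lower, against 2.81% and 3.91% of all genes tested. DESeq2 called 41 higher and 27 lower, against 3.1% and 5.45% of the genes it tested. The median log2 change was 0.191 over the 568 and 0.009 over all genes. All 568 tested genes, called or not, had more bases under cKO H3K27me3 peaks than under kept WT peaks. The rule largely set this, as 98.4% of kept WT bases lay inside cKO peaks. The counts moved with single libraries: without WT replicate 2 there were 13 higher and 15 lower genes, without WT replicate 1 25 and 22, without cKO replicate 1 63 and 40, and without cKO replicate 2 64 and 38. Without WT replicate 2 the lower genes thus outnumbered the higher ones. Over all genes, lower calls outnumbered higher ones even with every library in. The shares of all genes called in the reduced fits are not given, so these shifts cannot be read as particular to kept-peak genes.

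Among the genes that rose at P21, En1, a midbrain-hindbrain homeobox factor, had 1.16 and 1.10 CPM in cKO and 0.1 and 0 CPM in WT. It was thus near silence in WT and low in cKO, with 46 counts in all in cKO against 2 in WT (ratio 22.9, exact 95% counting interval 5.98 to 195). By library its counts were 24 and 22 in cKO and 2 and 0 in WT. The filter on low counts let it through by its cKO libraries alone, so it could be tested only because it was high in cKO. Twist1 had 13.4 and 11.3 CPM in cKO and 2.05 and 1.60 CPM in WT, a log2 change of 2.75 with an SE of 0.23 (edgeR adjusted p = 0.00175). Dlk1, an imprinted Notch-like ligand, had 49.5 and 38.8 CPM in cKO and 5.56 and 4.61 CPM in WT, a log2 change of 3.12 with an SE of 0.18 (edgeR adjusted p = 0.00049). For both genes each cKO library lay above each WT library.

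Wnt10b, a Wnt ligand, had 6.31 and 2.26 CPM in cKO and 0.451 CPM in both WT libraries (log2 change 3.23, SE 0.57). Asb4, a ubiquitin ligase adaptor of an imprinted region, had 1.74 and 1.05 CPM in cKO and 0.2 and 0.1 CPM in WT. Both were under the level the filter asks for in both WT libraries and were tested by their cKO libraries alone. Slc9a3, a sodium-proton exchanger, had 4.96 and 5.77 CPM in cKO and 1 and 0.953 CPM in WT, and the kinase gene Mapk15 had 5.54 and 6.17 CPM in cKO and 1.35 and 0.802 CPM in WT. These genes are among the 8 highest changes with at least 1 CPM in the higher group. The call was lost for Wnt10b without WT replicate 1, and for En1, Wnt10b and Asb4 without WT replicate 2, where the highest adjusted p of these was 0.161. DESeq2 gave no adjusted p for En1 and Asb4.

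Among the genes that fell at P21, Egr2, an activity-induced zinc finger factor that also drives myelination in Schwann cells, had 1.59 and 0.451 CPM in cKO and 12.6 and 15.7 CPM in WT (log2 change -3.77, SE 0.49, edgeR adjusted p = 0.0168). Fosb, an activity-induced AP-1 factor, had 11.7 and 9.68 CPM in cKO and 29.4 and 34.1 CPM in WT (log2 change -1.57, SE 0.15, edgeR adjusted p = 0.00293). In both genes each cKO library lay below each WT library.

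Papss2, which makes the sulfate donor, had 3.08 and 4.16 CPM in cKO and 14.4 and 15.1 CPM in WT, and Dsp, the desmosomal protein desmoplakin, had 25.4 and 14.8 CPM in cKO and 66.6 and 86.2 CPM in WT. The antisense transcript Fzd10os had 0.868 and 0.351 CPM in cKO and 2.60 and 3.81 CPM in WT, and, as no source says whether counting used strand, reads of Fzd10 could enter. Slc30a2, a zinc transporter, fell by 1.93 (SE 0.29) and Sgpp2, a sphingosine phosphatase, by 1.74 (SE 0.28) on the log2 scale, with edgeR adjusted p of 0.0121 and 0.0146. The call was lost for Egr2 and Dsp without WT replicate 1, for these and Fzd10os, Slc30a2 and Sgpp2 without WT replicate 2, and for Dsp with no filter on low counts. Egr2 and Fzd10os had 1 cKO library each under the level that filter asks for.

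The lower genes also held Mal, Bcas1, Olig1 and S1pr5, known in oligodendrocytes and named after their values were seen. Mal, a myelin proteolipid, had 235 and 178 CPM in cKO and 407 and 460 CPM in WT. Markers of oligodendrocytes fell with them: all 6 were called lower, and they summed to 3490 to 3710 CPM in cKO and 5840 to 6200 CPM in WT, with none below 1 CPM throughout. Markers of microglia, 4 of 4 lower, summed to 77.0 to 78.5 CPM in cKO and 154 to 162 CPM in WT. Striatal markers, 3 of 6 higher, summed to 139 to 199 CPM in cKO and 72.9 to 78.6 CPM in WT, and Drd2 and Isl1 are among those with kept peaks. Choroid plexus and ependymal markers, 2 of 5 higher, summed to 1010 to 3540 CPM in cKO and 1150 to 1380 CPM in WT. Endothelial markers, 2 of 3 higher and 1 lower, summed to 52.6 to 53.7 CPM in cKO and 37.3 to 42.0 CPM in WT, and one of them, the tight junction gene Cldn5, has a kept peak and was among the 40 higher genes. Thalamic markers, 1 of 4 higher, summed to 108 to 145 CPM in cKO and 93.2 to 97.4 CPM in WT. Astrocyte markers, 2 of 4 lower, summed to 947 to 1020 CPM in cKO and 937 to 979 CPM in WT, and blood markers, with 0 called, to 122 to 306 CPM in cKO and 74.3 to 187 CPM in WT. The part of these markers in the calls was not tested, and in bulk tissue fewer cells of a type and less RNA per cell cannot be told apart.

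**Figure D5:**
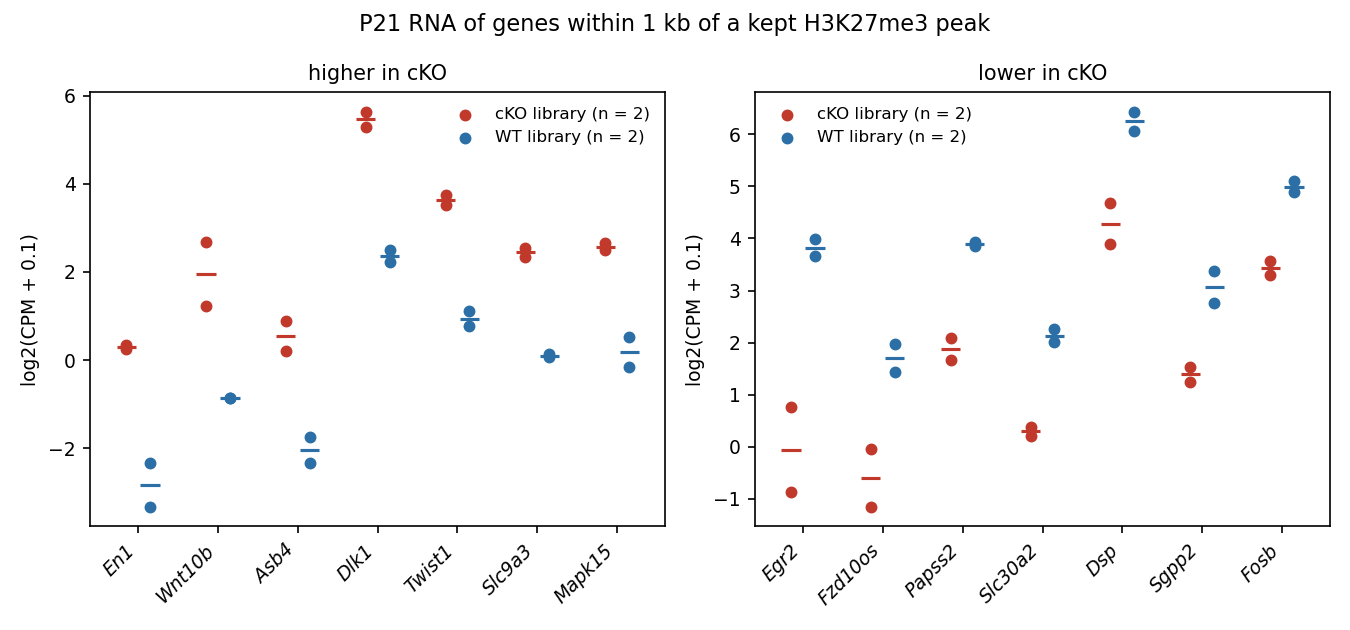
P21 RNA as log2(CPM + 0.1) of 7 of the 8 genes with the highest (left) and 7 of the 8 with the lowest (right) called change among genes within 1 kb of a kept peak, with points for the 2 cKO (red) and 2 WT (blue) libraries and a line at their mean. The points of the 2 genotypes do not overlap for any of these genes, which the rule that chose them required.

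By list, the genes called at P21 were few, and their counts stand beside 7.04% higher and 4.4% lower over the tested kept-peak genes and 2.81% and 3.91% over all genes tested. No Hox gene passed the filter on low counts, and all 39 had a mean under 1 CPM at both ages. Of 49 patterning homeobox factors, 15 were tested, 5 were higher, among them En1, Irx5 and Six3, and 0 lower. Six3, a forebrain and eye factor, had 4.72 and 3.26 CPM in cKO and 1.20 and 1.15 CPM in WT. Of 28 signalling ligands with a kept peak, 15 were tested, 5 were higher (Bmp2, Bmp6, Dlk1, Wnt10b, Wnt8b) and 0 lower. Mesoderm and endoderm factors with a kept peak had 19 tested, with Gata2 and Twist1 higher and 0 lower. LIM homeobox factors had 3 tested and Isl1 higher, and neurogenic factors had 8 tested with Sox2, which lies inside Sox2ot and may share reads with it, higher and Olig1 lower. Median log2 changes over tested members ran from 1.52 for LIM homeobox factors and 1.005 for patterning factors to -0.147 for neurogenic factors, beside 0.009 over all genes. Of 3 pallial factors with a kept peak, Nr2f2 was higher, with 49.6 and 46.0 CPM in cKO and 33.3 and 27.9 CPM in WT, while Meis2 did not pass.

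Kept-peak genes with the most RNA did not all change. Mal, given above, was lower. Abr, a GTPase regulator, had 915 and 991 CPM in cKO and 916 and 972 CPM in WT, a log2 change of 0.01 with an SE of 0.11 (edgeR adjusted p = 0.954). Gad1, the GABA-synthesising enzyme of interneurons, had 259 and 269 CPM in cKO and 250 and 245 CPM in WT. Within 1 kb of the gene, 10240 bp lay under cKO H3K27me3 peaks and 1048 bp under kept WT peaks. A link between this cover and the RNA was not tested. The postsynaptic scaffold gene Shank2 (log2 change 0.13, SE 0.10) and the activity-induced Egr3 (-0.42, SE 0.13) also missed the threshold, with edgeR adjusted p of 0.478 and 0.0913. CPM is not scaled to gene length, so these levels rank genes by reads.

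H3K4me3 was present at most expressed genes of kept regions. The share over all tested genes is not given, so this is not read as a trait of kept regions. Of the 568 tested at P21, 93.7% had a cKO and 82.9% a WT H3K4me3 peak within the gene or 1 kb of it. These shares were 92.5% and 77.5% among the 40 higher genes, and 88.0% and 72.0% among the 25 lower genes. Bases under all cKO H3K27me3 peaks were set against those under kept WT peaks. Their median ratio was 3.33 in higher genes, 4.60 in lower genes and 3.63 in all tested genes. These differences between called and other genes were not tested.

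At E16.5, before the age of the ChIP libraries, 1 of 556 tested kept-peak genes was higher and 1 lower in cKO by edgeR (0.18% each), against 0.0118% and 0.112% of all genes tested. At an unadjusted p under 0.05, 25 were higher and 131 lower, and DESeq2 called 12 higher and 53 lower at its adjusted p. Over all genes those rules called 9.13% and 11.5% (unadjusted) and 2.22% and 4.5% (DESeq2). The median log2 change over the 556 genes was -0.434, beside -0.010 over all genes. Choroid plexus and ependymal markers summed to 7.29 to 2400 CPM in cKO and 35.8 to 4670 CPM in WT at this age, ranges that overlap. Sums of oligodendrocyte, thalamic and blood markers overlapped between genotypes as well. Those of the remaining sets did not, although 0 of their genes passed edgeR. Microglial markers summed to 22.8 to 31.3 CPM in cKO and 46.9 to 90.1 CPM in WT, astrocyte markers to 149 to 233 CPM in cKO and 343 to 564 CPM in WT, and endothelial markers to 49.8 to 54.6 CPM in cKO and 67.5 to 157 CPM in WT. Hippocampal neuron markers were lower too, at 1550 to 1680 CPM in cKO and 1750 to 2220 CPM in WT, and striatal markers higher, at 69.7 to 115 CPM in cKO and 25.7 to 56.7 CPM in WT. The part of these markers in the shift was not tested.

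The higher gene was Neurog1, a proneural helix-loop-helix factor. It had 7.52, 11.3 and 10.9 CPM in cKO and 0.368, 0.359 and 0.308 CPM in WT, a log2 change of 4.81 with an SE of 0.26 (edgeR adjusted p = 0.0103), and its WT libraries alone would not have passed the filter on low counts. Every cKO library lay far above every WT library, and at P21 its counts were 0 and 0 in cKO and 0 and 2 in WT. At 3 weeks, within the gene and 1 kb around it, 1 cKO H3K27me3 peak with a fold enrichment of 13.8 covered 3703 bp and 2 kept WT peaks with a highest of 6.34 covered 2837 bp, and there was no H3K4me3 peak in either genotype. The lower gene was Cdc42ep1, a Cdc42 effector, with 6.28, 6.73 and 8.24 CPM in cKO and 32.4, 22.7 and 22.6 CPM in WT (log2 change -1.87, SE 0.19, edgeR adjusted p = 0.0413). The Neurog1 call was lost without WT replicate 1 (adjusted p = 0.0753) and without WT replicate 3 (0.0906), and the Cdc42ep1 call without any 1 of the 6 libraries, where edgeR adjusted p ran from 0.0571 to 0.266.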

How the data were processed

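H3K27me3, H3K4me3 and H3K27ac peaks were taken from lists the authors deposited, called per library against the input of the same genotype as narrow peaks with a q limit of 0.01 by MACS 2.2.7.1, per the file headers, while the submitters' processing notes name MACS2 2.2.5. The notes give Bowtie2 2.3.5.1 and GRCm38. The deposited lists give a pileup signal, a fold enrichment ratio over local input and a q-value as −log10 for each peak, and the larger of ChIP and input was scaled to the smaller, per the file headers. Fragment lengths, 250 bp in cKO and 270 bp in WT, set the shortest peak. Narrow calling splits broad domains, so covered bases and pairs of single peaks are given too. RNA values are estimated counts the authors deposited, made with Salmon 1.0.0 per the submitters' processing notes, and were rounded here.

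Peaks were intersected at 1 bp in Python 3.11.15 and given to genes within 1 kb in a RefSeq table (GRCm38.p6). Shares have Wilson 95% intervals, which cover counting error only. No ChIP difference was tested, since each genotype has 1 library. RNA was tested per age over all genes with edgeR 4.0.16 (R 4.3.3) after filterByExpr and TMM, by the robust quasi-likelihood F test, threshold 0.05, with DESeq2 1.42.0 as an alternative. Of 1357 kept-peak genes 84.7% matched by symbol or Entrez identifier. Interval and edgeR code was checked on simulated data.

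The regions, gene lists and tests were chosen with earlier results of these data known. Named were the 10 genes with most kept bases whose symbol is no model name, the 8 kept peaks with the highest WT enrichment, the 5 with the highest and 5 with the lowest cKO/WT enrichment, up to 8 called genes per direction at P21 and 4 at E16.5 with at least 1 CPM and groups that do not overlap, up to 4 members per list, and the 5 genes with the highest P21 CPM. Of the list members only some are given with values, and some genes and peaks that the rule names are not reported here.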

Additional observations from a re-analysis of the deposited data

Results flagged for a closer look

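Tbx15, a T-box factor of mesoderm among the genes with most kept bases, was set apart because every cKO library lay above every WT library at P21 and below every WT library at E16.5. It had 1.59 and 1.15 CPM in cKO and 0.851 and 1 CPM in WT at P21, a log2 change of 0.56. At E16.5 it had 0.449, 0.226 and 0.799 CPM in cKO and 6.73, 0.924 and 0.923 CPM in WT, a log2 change of -2.51, with WT replicate 1 far above the others. Neither change passed edgeR (adjusted p = 0.409 at P21 and 0.231 at E16.5), and the difference between ages was not tested.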

How the results depend on the processing

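Of 4037 kept peaks, 412 remained under a reciprocal overlap of at least 50%, and with peaks merged within 3 kb 1320 of 1367 WT domains were kept. The median cKO/WT length ratio was 2.67 in single pairs and 3.92 in merged domains, the pileup ratio 1.259 and 1.37, and the fold enrichment ratio 1.63 and 1.94. At a −log10 q of at least 5 the pileup ratio was 1.51 and the fold enrichment ratio 2.15, and scaled to the tag number of the libraries the pileup ratio was 1.58. The share near a gene was 71.6% for overlap with the gene and 90.0% within 5 kb. With H3K4me3 within 1 kb the shares were 33.02% in cKO and 23.4% in WT, and with H3K27ac 4.46% in cKO and 0.347% in WT; at the stricter q limit they were 20.1% and 14.1%, and 2.06% and 0.0298%.

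At P21 leaving out 1 library gave 13 to 64 higher and 15 to 40 lower genes, against 40 and 25. With no filter on low counts there were 76 higher and 38 lower. The shares of all genes called in these fits are not given, so the counts have no background beside them. At E16.5 the range was 0 to 2 higher and 0 to 0 lower, DESeq2 called 12 and 53, and no filter on low counts gave 4 and 9. A fit with the replicate number as a block gave 38 higher and 26 lower at P21 and 0 and 0 at E16.5, where edgeR adjusted p was 0.193 for Neurog1 and 0.37 for Cdc42ep1. Same-numbered libraries did not deviate together (correlations of 0.0198 at P21 and -0.492 to -0.0208 at E16.5), so they share only a number. Where leaving out a P21 library left 1 in a genotype, that library was assumed to vary like the other genotype's. With 1 ChIP library per genotype no ChIP difference has a replicate check.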
